A study of Mus musculus with 6 samples.

Results

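Notch signaling was read at the mRNA level in TuBo cells through 10 genes taken by symbol from the deposited counts of 21960 genes. They are the receptors Notch1, Notch2 and Notch3, the ligands Jag1, Jag2 and Dll1, the nuclear factor Rbpj, and the targets Hes1, Hey1 and Nrarp. Each symbol matched a single gene, and all 10 had enough reads to be tested. In p140Cap cells Notch3 and Jag2 mRNA were higher, Notch1, Dll1, Jag1 and Nrarp mRNA were lower, and no difference was called for Notch2, Rbpj, Hes1 or Hey1.

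Notch is a receptor for ligands carried by neighboring cells. Binding of a Delta or Jagged ligand lets ADAM proteases and then the γ-secretase complex cut the receptor, and the released intracellular domain enters the nucleus, joins the DNA-binding protein RBPJ and a Mastermind coactivator, and switches on genes such as Hes1, Hey1 and Nrarp. In the mammary gland the pathway is known for its part in luminal cell fate. Receptors and ligands act as proteins, so mRNA levels do not measure how much receptor is cut.

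The TuBo line comes from BALB/c-MMTV-NeuT mice, which develop mammary tumors because the MMTV promoter drives the rat NeuT oncogene, an activated form of HER2. The comparison had 3 mock libraries, given the genotype wt in the labels, and 3 p140Cap libraries, labelled as overexpressing p140Cap. Both groups thus share the TuBo background and its oncogene. The p140Cap cells carry a p140Cap cDNA delivered by retrovirus, were selected with puromycin and are a pool of clones grown from single cells. The deposited text speaks both of cell lines and of mice, and the samples were taken to be TuBo cells. Nothing in the sources says that replicates were separate cultures, so p-values measure the spread between these libraries, which may be technical. The question addressed here is which Notch genes differed between p140Cap and mock cells.

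Mock libraries held between 33058719 and 75506562 reads on genes and p140Cap libraries between 13770385 and 15364850, so every mock library was the deeper. Levels are given as normalized read counts scaled to library size (CPM), and differences as log2 fold changes of p140Cap over mock cells from edgeR's quasi-likelihood test. A gene was called at a Benjamini-Hochberg adjusted p under 0.05 over the 11800 genes tested. Srcin1, which encodes p140Cap, had 15.0 ± 1.96 CPM in mock and 2343 ± 153 CPM in p140Cap cells (SD, n = 3 each), as its labels say. All 5 mammary epithelial markers (Krt8, Krt18, Epcam, Cdh1 and Erbb2) were above 1 CPM, with sums of 5245 to 5570 CPM in mock and 6183 to 6339 CPM in p140Cap libraries. Of the markers of other cell types, none of 5 myoepithelial, none of 5 endothelial, 2 of 6 fibroblast (Col1a1 and Pdgfra) and 1 of 6 immune genes (Cd68) passed 1 CPM. The fibroblast sum was 9.97 to 10.5 CPM in mock and 11.3 to 14.1 CPM in p140Cap libraries, with Col1a2, Col3a1 and Dcn at 0. The immune sum was 2.04 to 2.34 CPM in mock and 3.23 to 4.09 CPM in p140Cap libraries, with Ptprc, Cd3e and Lyz2 at 0.

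The DNA just upstream of 3 of the genes is shown because Notch1 and Notch3 changed in opposite directions and Nrarp was the target that was called. Sequences are from RefSeq (GRCm38.p6), end at the base before the annotated gene start, and run 5′ to 3′ on the strand of the gene. Capitals mark the GC box letters GGGCGG on either strand and, in Nrarp, also the E-box letters CACGTG. Notch1 is chr2:26503823-26504072 on the minus strand, Notch3 is chr17:32166897-32167140 on the minus strand, and Nrarp is chr2:25180508-25180757 on the plus strand.
Notch1: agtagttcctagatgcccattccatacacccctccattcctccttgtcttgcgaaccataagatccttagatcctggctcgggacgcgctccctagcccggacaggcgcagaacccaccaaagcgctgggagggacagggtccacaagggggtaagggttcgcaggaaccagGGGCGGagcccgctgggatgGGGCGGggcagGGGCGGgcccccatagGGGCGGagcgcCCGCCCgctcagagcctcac
Notch3: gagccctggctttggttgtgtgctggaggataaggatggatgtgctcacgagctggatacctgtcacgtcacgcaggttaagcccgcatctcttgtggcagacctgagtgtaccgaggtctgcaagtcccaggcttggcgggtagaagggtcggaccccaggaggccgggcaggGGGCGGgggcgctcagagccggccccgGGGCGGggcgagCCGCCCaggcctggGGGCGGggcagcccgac
Nrarp: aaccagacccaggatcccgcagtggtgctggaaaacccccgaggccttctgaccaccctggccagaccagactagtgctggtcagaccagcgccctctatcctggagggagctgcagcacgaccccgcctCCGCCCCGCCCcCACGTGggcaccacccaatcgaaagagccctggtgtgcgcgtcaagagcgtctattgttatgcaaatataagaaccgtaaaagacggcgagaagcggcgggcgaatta
Of the 10 genes, 8 had an entry in the RefSeq promoter table, with 10 windows of 250 bases before to 50 bases after a start listed there. That start is not always the annotated gene start. The Rbpj windows, the Jag2 window and the first of the Dll1 windows lie inside the annotated gene. Hes1 and Hey1 had none. GC box letters stood in 6 of the 10 windows, against 35.66% of all 32851 mouse windows. The Notch1 stretch held 5 GC boxes, the Notch3 stretch 4 and the Nrarp stretch 2 that overlap each other. Nrarp also had an E-box, which 7.15% of all windows hold. The RBPJ letters GTGGGAA, searched on both strands, were in 0 of the 10 windows and in 6.38% of all windows. The windows were between 55.67% and 86.0% GC, against a median of 52.67% for all windows. The window of Notch2, which was not called, held 7 GC boxes, and the windows of Dll1 and Jag1, which were called, held 0. These matches describe letters only, not binding sites.

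Of the 10 Notch genes, 6 (60%) were called, beside 71.1% of all genes tested, so the share called was no higher than that of genes at large. Of them, 2 were higher in p140Cap cells, beside 35.2% of all genes, and 4 were lower, beside 35.9%. The mock and p140Cap libraries did not overlap for the same 6 genes, beside 73.4% of all genes. The median log2 fold change was -0.025 over the Notch genes and -0.0015 over all genes. The median size of the change, regardless of direction, was 0.26 log2 units for the Notch genes and 0.32 for all genes. Of the 10 Notch genes 1, Jag2, was called with a change of at least 1 log2 unit, beside 1177 of the 11800 genes tested, a like share. In a bulk sample, fewer cells carrying a transcript and less of it per cell cannot be told apart.

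**Figure D1:**
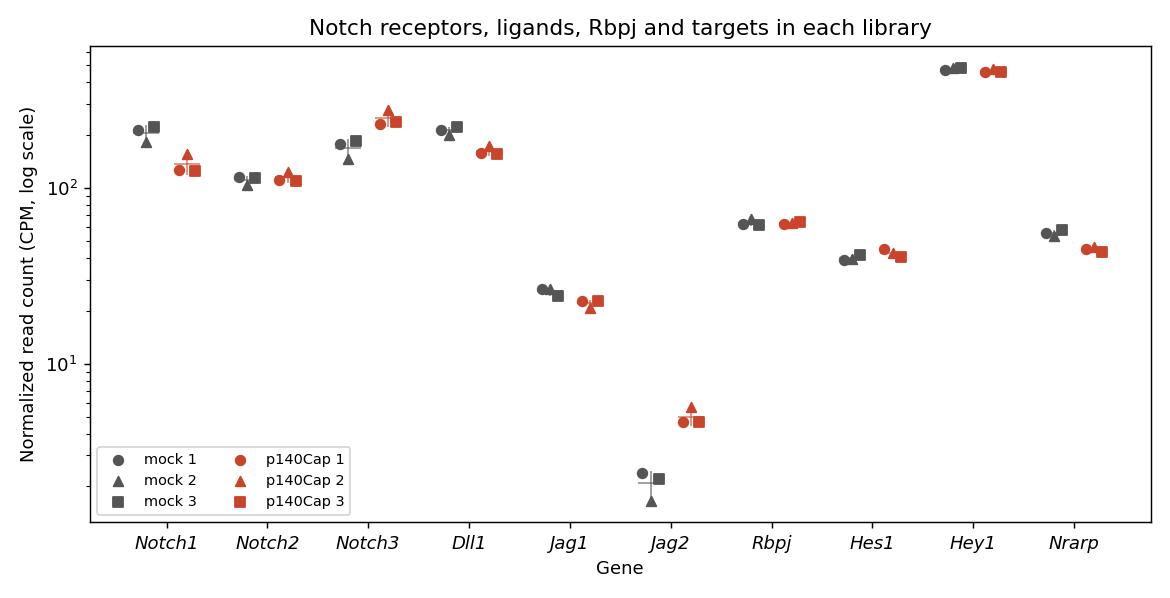
Normalized read count (CPM, log scale) of each Notch gene in each library, with mock libraries in grey, p140Cap libraries in red, horizontal marks at group means and vertical bars of 1 SD. The groups are apart for Notch1, Notch3, Dll1, Jag1, Jag2 and Nrarp and overlap for Notch2, Rbpj, Hes1 and Hey1.

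Among the receptors, Notch1 fell and Notch3 rose. Notch1 (chr2:26457902-26503822, minus strand), a receptor of luminal progenitors among other cells, had 215, 183 and 223 CPM in mock libraries 1 to 3 and 127, 157 and 126 CPM in p140Cap libraries 1 to 3. Every p140Cap library was below every mock library. Its log2 fold change came to -0.60 (adjusted p = 5.26e-06 from edgeR, SE 0.081), which is 1.51 times lower in p140Cap cells. In both groups library 2 was the one nearest to the other group.

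Notch3 (chr17:32120820-32166896, minus strand), best known as the receptor of vascular smooth muscle and also present in luminal cells, had 179, 147 and 185 CPM in mock and 233, 280 and 238 CPM in p140Cap libraries. Every p140Cap library was above every mock library, and for this gene library 2 was the one farthest from the other group on both sides. This is a log2 fold change of 0.56 (adjusted p = 9.45e-06 from edgeR, SE 0.080), or 1.47 times more in p140Cap cells. It was 0.37 (adjusted p = 1.16e-05 from edgeR) without library 2 of either group.

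Notch2 (chr3:98013538-98150367, plus strand) had 115, 104 and 114 CPM in mock and 111, 124 and 111 CPM in p140Cap libraries. The groups overlapped. Its log2 fold change was 0.048 with a 95% interval of -0.071 to 0.17 (adjusted p = 0.453 from edgeR), so an increase of more than 0.17 log2 units lay outside the interval.

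The reads of a pair of genes were also set against each other inside each library, which removes the scaling between libraries. The ratio of Notch3 to Notch1 reads was 0.832, 0.803 and 0.830 in mock and 1.83, 1.78 and 1.89 in p140Cap libraries. All mock libraries thus had more Notch1 than Notch3 reads, and all p140Cap libraries had the reverse. The log2 ratio differed by 1.16, with SDs of 0.028 and 0.042 within the groups, and library 2, apart from its group in each gene, was close to its group in the ratio. The ratio of Notch2 to Notch1 was 0.536, 0.569 and 0.514 in mock and 0.872, 0.786 and 0.878 in p140Cap libraries, a log2 difference of 0.65. Both differences had p = 0.1 in a two-sided exact permutation test, the smallest p that 3 against 3 libraries can give, and 0.133 when adjusted over the 4 pairs compared.

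Shares of a receptor in the family need levels per length, and CPM were divided by the length of all annotated exons of a gene in kb. Notch3 made up 43.9%, 42.5% and 44.3% of the summed receptor level in mock and 57.9%, 58.5% and 58.6% in p140Cap libraries. Notch1 made up 33.4%, 33.5% and 33.8% in mock and 20.0%, 20.8% and 19.6% in p140Cap libraries. The share of Notch2 was 22.9% ± 1.09 in mock and 21.5% ± 0.750 in p140Cap cells (SD, n = 3 each). Notch3 was thus the receptor with the largest share in every library, but with the longest transcript as the length Notch1 led in mock cells, with a mean of 40.8% against 39.4% for Notch3. The summed receptor level was 43.3 ± 4.31 CPM per kb in mock and 47.6 ± 4.79 CPM per kb in p140Cap cells (SD, n = 3 each), a difference within the spread (exact permutation p = 0.6, two-sided).

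**Figure D2:**
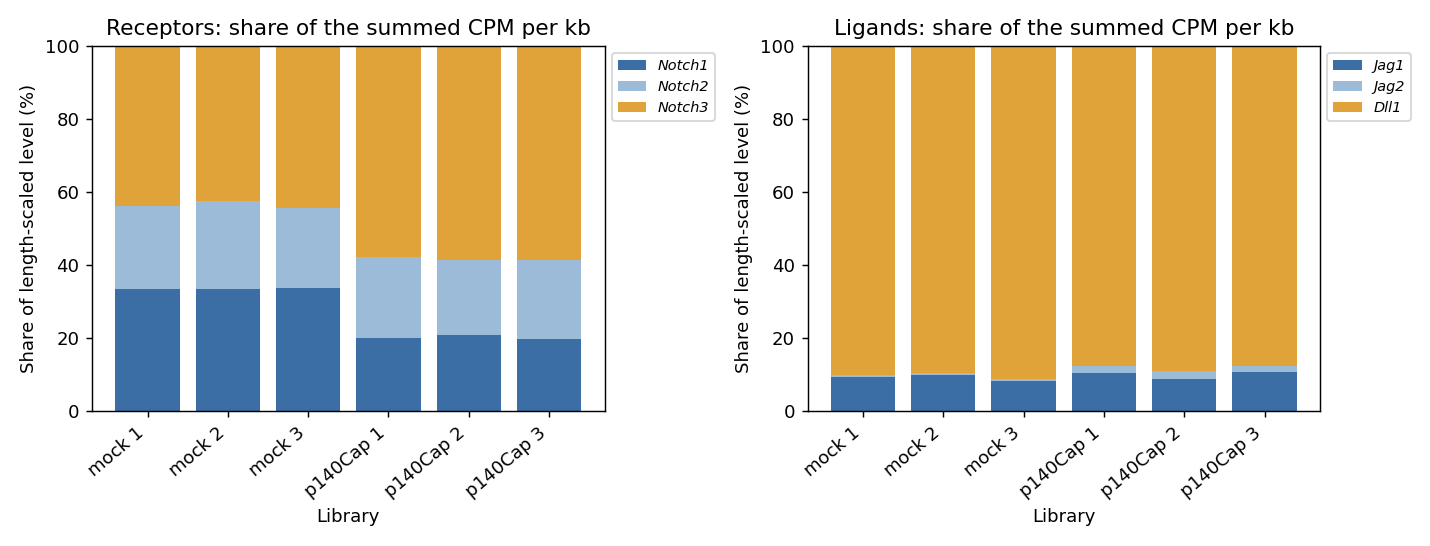
Share of each receptor (left) and each ligand (right) in the summed level per kb of its family, in percent, with a bar for each library. The Notch3 part of the receptor bar grows from 43.6% on average in mock to 58.3% in p140Cap libraries, while Dll1 fills most of every ligand bar.

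The ligands also moved apart, with Dll1 and Jag1 lower and Jag2 higher. Dll1 (chr17:15367354-15376932, minus strand), a Delta ligand, had 215, 202 and 223 CPM in mock and 158, 174 and 156 CPM in p140Cap libraries. The groups did not overlap. Dll1 thus fell by 0.39 on the log2 scale (adjusted p = 6.76e-06 from edgeR, SE 0.055), which is 1.31 times lower in p140Cap cells.

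Jag2 (chr12:112907803-112929812, minus strand), a Jagged ligand, was the rarest of the 10 transcripts, with 183, 66 and 73 reads in mock and 71, 83 and 63 reads in p140Cap libraries. After scaling these were 2.39, 1.66 and 2.19 CPM in mock and 4.68, 5.65 and 4.63 CPM in p140Cap libraries. The lowest p140Cap library was above the highest mock library. This gives a log2 fold change of 1.23 (adjusted p = 3.30e-06 from edgeR, SE 0.16), or 2.35 times the mock level, and it is the change with the widest interval of the 10, from 0.89 to 1.57.

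Jag1 (chr2:137081451-137116520, minus strand), the other Jagged ligand, had 26.5, 26.8 and 24.2 CPM in mock and 22.7, 20.8 and 22.7 CPM in p140Cap libraries. The groups did not overlap, but the gap between them was small. Jag1 fell by 0.23 on the log2 scale (adjusted p = 0.00720 from edgeR, SE 0.069). Without library 2 of either group it was -0.17 and was no longer called (adjusted p = 0.0787 from edgeR).

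In ratios within a library, Jag2 to Jag1 reads were 0.0902, 0.0619 and 0.0907 in mock and 0.206, 0.271 and 0.204 in p140Cap libraries. Its geometric mean was 2.82 times higher in p140Cap cells (exact permutation p = 0.1, the smallest possible, and 0.133 adjusted over the 4 pairs). The ratio of Dll1 to Jag1 reads was 8.12, 7.54 and 9.23 in mock and 6.95, 8.34 and 6.85 in p140Cap libraries. These overlapped, and the log2 difference of -0.17 had an exact permutation p of 0.3 before and after adjustment.

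Per kb, Dll1 made up 90.3% ± 0.801 of the summed ligand level in mock and 88.1% ± 0.852 in p140Cap cells (SD, n = 3 each). Jag1 made up 9.11% ± 0.843 and 10.01% ± 0.971, and Jag2 0.614% ± 0.0931 and 1.89% ± 0.120 of it in the same order. Jag2 was the smallest part of the summed level of these 3 ligands in every library, although its share in each p140Cap library was above that in each mock library. The summed ligand level was 47.7 ± 2.00 CPM per kb in mock and 37.2 ± 1.91 CPM per kb in p140Cap cells, and the groups did not overlap (ratio 0.780, exact permutation p = 0.1, two-sided, the smallest possible). Dll1 carried most of this sum.

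**Figure D3:**
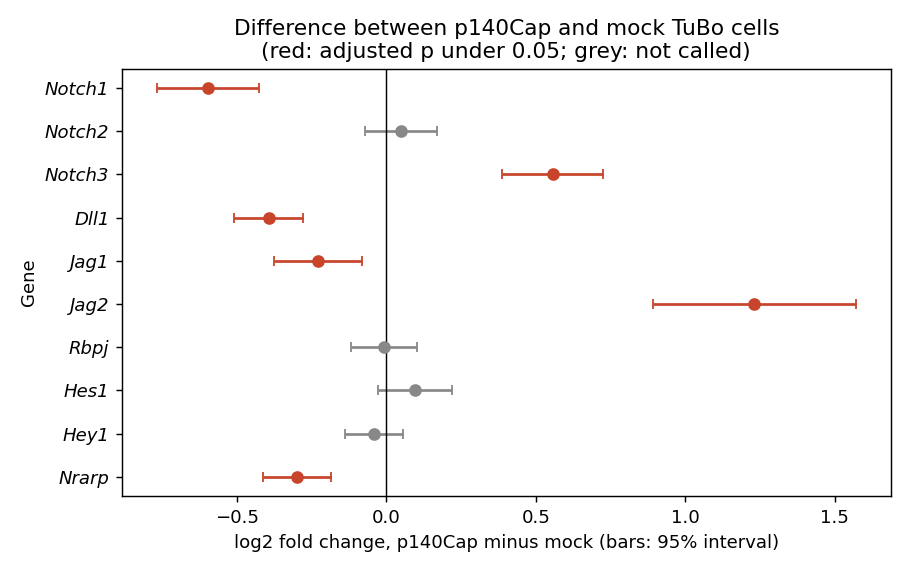
Log2 fold change of p140Cap over mock cells for each Notch gene, with bars for the 95% interval of edgeR's fit; red points were called and grey points were not. Jag2 lies farthest from 0 at 1.23, Notch1 and Notch3 lie on opposite sides at -0.60 and 0.56, and the intervals of Notch2, Rbpj, Hes1 and Hey1 cover 0.

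Of the nuclear factor and the targets, only Nrarp was called. Rbpj (chr5:53555779-53657445, plus strand), which binds DNA with or without the Notch domain, had 62.2, 66.7 and 61.8 CPM in mock and 62.4, 62.9 and 64.2 CPM in p140Cap libraries. The groups overlapped. For Rbpj the log2 fold change was -0.0077 with a 95% interval of -0.12 to 0.10 (adjusted p = 0.900 from edgeR).

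Hes1 (chr16:30065357-30067796, plus strand), a repressor of the basic helix-loop-helix family, had 38.8, 39.7 and 41.8 CPM in mock and 45.1, 42.6 and 40.5 CPM in p140Cap libraries. The p140Cap 3 library lay below mock 3, so the groups overlapped. For Hes1 the log2 fold change was 0.096 with a 95% interval of -0.027 to 0.22 (adjusted p = 0.150 from edgeR). Hey1 (chr3:8663359-8667038, minus strand), a related repressor, had 472, 481 and 485 CPM in mock and 459, 480 and 457 CPM in p140Cap libraries. Here p140Cap 2 lay among the mock libraries. For Hey1 the log2 fold change was -0.042 with a 95% interval of -0.14 to 0.055 (adjusted p = 0.418 from edgeR). For both genes the intervals leave out a change the size of that of Notch1 or Notch3.

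Nrarp (chr2:25180758-25183339, plus strand), a target whose protein binds the Notch domain and restrains the pathway, had 55.5, 53.2 and 57.4 CPM in mock and 45.3, 46.2 and 43.5 CPM in p140Cap libraries. The groups were apart. Nrarp fell by 0.30 on the log2 scale (adjusted p = 0.000113 from edgeR, SE 0.054), which is 1.23 times lower in p140Cap cells. Its upstream stretch is the one with the E-box printed above.

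The order of levels per kb can be read across all 10 genes. In mock cells Hey1 stood first with 99.9 ± 1.44 CPM per kb, followed by Dll1 (43.0 ± 2.16), Nrarp (21.4 ± 0.833), Notch3 (18.9 ± 2.27), Notch1 (14.5 ± 1.49), Hes1 (11.9 ± 0.446) and Notch2 (9.87 ± 0.555), all as CPM per kb (SD, n = 3). Rbpj (4.94 ± 0.211), Jag1 (4.33 ± 0.241) and Jag2 (0.293 ± 0.0534) closed the order. No neighbors in it overlapped between libraries, but Nrarp and Notch3 came close, at 20.6 CPM per kb in the lowest and 20.5 CPM per kb in the highest library. In p140Cap cells Notch3 (27.8 ± 2.89 CPM per kb) stood above Nrarp (17.4 ± 0.532), and Notch1 (9.61 ± 1.25) stood below Hes1 (12.7 ± 0.694) and lay beside Notch2 (10.2 ± 0.658), whose libraries overlapped with it. The ends of the order, Hey1 and Dll1 at the top and Rbpj, Jag1 and Jag2 at the bottom, were the same in both groups. With the longest transcript as the length these ends kept their places, but in mock cells Notch1, Nrarp and Notch3 then overlapped, as did Notch2 and Rbpj. The p140Cap order depended on the length too. With the longest transcript, Notch1 (14.4 CPM per kb) overlapped with Hes1 (15.4 CPM per kb) and stood above Notch2 (10.9 CPM per kb) without overlap.

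Library 2 stood apart from its group in several of these genes. Mock 2 was the lowest mock library and p140Cap 2 the highest p140Cap library for 6 of the 10 genes (Notch1, Notch2, Notch3, Jag2, Dll1 and Nrarp), beside 22.0% of all genes tested. Libraries also differed by the GC content of transcripts. With the genes tested split into 5 equal bins by GC content, the median log2 deviation from the group mean in the bin of highest GC content was -0.066 in mock 2 and 0.068 in p140Cap 2, but also 0.066 in mock 3 and -0.045 in p140Cap 1. Transcripts of Notch3 (59.7% GC), Notch1 (57.1%), Jag2 (61.9%) and Hes1 (61.7%) are in that bin, but Hes1 did not have the library 2 pattern, and Notch2 (53.7%), Dll1 (53.9%) and Nrarp (54.5%), which had it, are in the next lower bin. The part of GC content in the differences was not tested. Without library 2 of either group, Notch1 was at -0.79 (adjusted p = 3.04e-08), Jag2 at 1.00 (adjusted p = 0.000175), Dll1 at -0.48 (adjusted p = 1.52e-06) and Nrarp at -0.35 (adjusted p = 0.000229) in edgeR's fit. Of the 6 calls, Jag1 was the one lost. This fit was chosen after seeing the data, so a smaller p-value in it is not stronger support. Over genes with enough reads, p140Cap 1 and p140Cap 3 were also the most alike of the p140Cap pairs (mean chi-square of reads 1.75). The pairs with p140Cap 2 had 4.57 and 4.85.

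**Figure D4:**
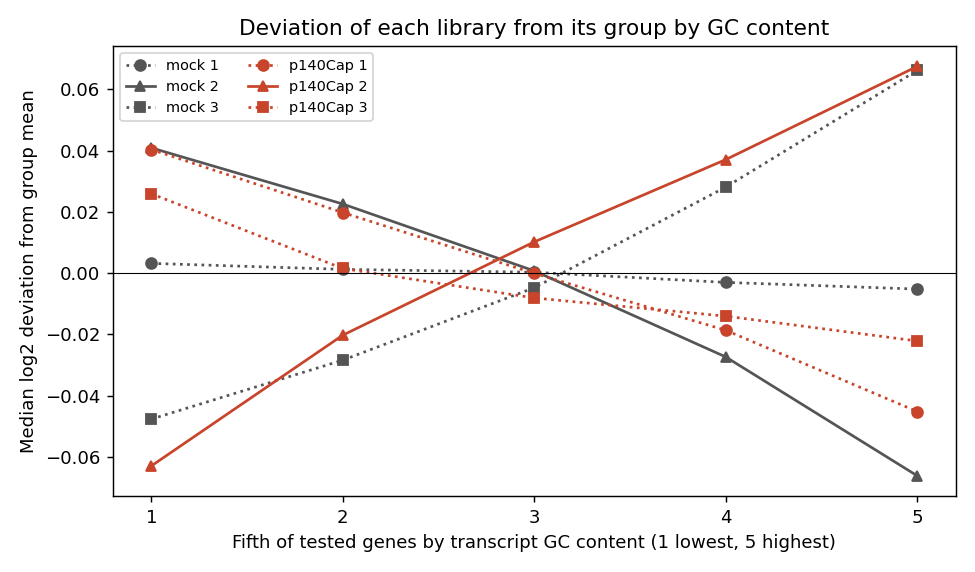
Median log2 deviation of each library from the mean of its group, over genes in 5 equal bins by transcript GC content from lowest to highest. Mock 2 and p140Cap 2 (solid lines) run in opposite directions and reach -0.066 and 0.068 in the highest bin, where mock 3 is at 0.066.

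Of 68 other genes of the pathway, listed by role, 55 could be tested and 39 (70.9%) were called, beside 71.1% of all genes tested. Of these, 26 were higher (beside 35.2%) and 13 lower (beside 35.9%) in p140Cap cells. Their median log2 fold change was 0.077. Of the 39 calls, those of Dll4, Furin, Spen, Ctbp2, Tle3 and Numb were lost under at least 1 other way of processing, and except for Dll4 each was also lost when a single library was left out.

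The remaining receptor and ligands were rare. Notch4, a receptor of endothelial cells, had 0.826 ± 0.0881 CPM in mock and 0.877 ± 0.0823 CPM in p140Cap cells and was not called (log2 fold change 0.079, adjusted p = 0.806 from edgeR). Dll4, a Delta ligand of the same cells, had 1.17 ± 0.107 and 1.84 ± 0.184 CPM and was called higher (log2 fold change 0.66, adjusted p = 0.00706 from edgeR, SE 0.20), but not after all libraries were thinned to the smallest total (0.51, adjusted p = 0.0871). The endothelial markers summed to 0.210 to 0.478 CPM in mock and 0.477 to 0.734 CPM in p140Cap libraries, with Kdr and Tie1 at 0 in every library and Cdh5 and Tek at 0 in p140Cap libraries. Pecam1, the marker with reads in every library (18, 17 and 5 in mock and 11, 7 and 10 in p140Cap libraries), was itself called higher (log2 fold change 1.25, adjusted p = 0.0133 from edgeR), and the part of such cells in the Dll4 level was not tested. Dll3 had 5, 3 and 3 reads in mock and 0 reads in all p140Cap libraries, a level at least 1.07-fold higher in mock cells when 3 reads over the p140Cap group are taken as the floor. Dlk1 had no reads and Dlk2 at most 2 in a library.

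Of the genes that modify or process the receptor on its way to the surface, 1 was higher and 2 were lower of 5 tested, so that 60% were called, beside 71.1% of all genes tested. Lfng, a Fringe enzyme that lengthens sugars on Notch and so alters which ligands it answers, had 46, 29 and 27 reads in mock and 1, 1 and 3 reads in p140Cap libraries. Pooled over libraries and scaled to their totals, mock cells had 5.93 times as much (95% exact binomial interval 2.46 to 18.6, counting error only). Of the 5 p140Cap reads 3 were in p140Cap 3, and without that library the fitted log2 fold change was -3.30 in place of -2.54. It was called lower (adjusted p = 0.000265 from edgeR). Pofut1, which adds the fucose that Fringe extends, fell from 53.6 ± 0.671 to 41.0 ± 1.79 CPM (log2 fold change -0.39, adjusted p = 6.60e-06 from edgeR, SE 0.053). Furin, the protease of the first cleavage, had 109 ± 4.70 and 121 ± 8.77 CPM and a log2 fold change of 0.15 (adjusted p = 0.0216 from edgeR). It was no longer called without mock 2 (0.12), without p140Cap 2 (0.091) or without both. The call was also lost with the replicate number as a block (adjusted p = 0.0503 from edgeR). Mfng had 12, 2 and 1 reads in mock and none in p140Cap libraries.

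Of 8 tested genes for the cuts that free the intracellular domain, 5 (62.5%) were called, beside 71.1% of all genes tested, and the 5 were higher, beside 35.2% of all genes. The γ-secretase subunit Ncstn, which holds the substrate, rose from 136 ± 4.73 to 182 ± 7.95 CPM (log2 fold change 0.42, adjusted p = 9.41e-07 from edgeR, SE 0.049). The subunit Psenen rose from 51.5 ± 1.09 to 65.3 ± 1.15 CPM (0.34, adjusted p = 1.05e-05), Aph1b from 15.6 ± 1.14 to 19.6 ± 1.35 CPM (0.32, adjusted p = 0.00157) and Aph1a from 147 ± 6.70 to 171 ± 11.2 CPM (0.22, adjusted p = 0.00157) in the same edgeR fit. The sheddase Adam10 rose from 340 ± 4.90 to 387 ± 5.34 CPM (0.19, adjusted p = 0.00130 from edgeR). Psen2, another γ-secretase subunit, and the sheddase Adam17 were not called, with log2 fold changes of -0.14 and -0.00071. Aph1c, a close copy of Aph1b, had 13 reads in mock and 19 in p140Cap libraries in all and was too low to test. After scaling this is 5.03 times as much in p140Cap cells (95% exact binomial interval 2.36 to 11.1), but counting could have split reads between the copies.

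In the nucleus, 4 of 8 coactivators (50%) were called, beside 71.1% of all genes tested, 3 higher and 1 lower. Maml3, a Mastermind coactivator, rose from 23.9 ± 1.34 to 36.0 ± 1.30 CPM (log2 fold change 0.59, adjusted p = 3.87e-07 from edgeR, SE 0.063). Maml2 and the acetyltransferase Kat2b were also higher, at 0.28 and 0.25. Kat2a, the paralog of Kat2b, fell from 64.8 ± 1.14 to 37.4 ± 1.27 CPM (-0.79, adjusted p = 1.21e-09 from edgeR, SE 0.053). Corepressors were called in 10 of 11 cases (90.9%, beside 71.1% of all genes tested), 5 in each direction, beside 35.2% higher and 35.9% lower over all genes. Of these calls, 3 (Spen, Ctbp2 and Tle3) were lost with the replicate number as a block, as well as without mock 1 or without p140Cap 1, which leaves 7 of 11. Over all genes, 8034 of 11800 were called with the block, 7851 of 11652 without mock 1 and 7876 of 12112 without p140Cap 1. Tle2, a Groucho corepressor recruited by Hes proteins, rose from 25.6 ± 1.77 to 63.1 ± 5.65 CPM (1.30, adjusted p = 7.87e-11 from edgeR, SE 0.069), and Cir1, which bridges RBPJ to histone deacetylases, rose by 0.62. Tle4 (-0.48), the deacetylase Hdac1 (-0.46) and Ctbp1 (-0.29) were lower on the same log2 scale.

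Of 14 tested genes of ligand endocytosis and receptor turnover, 12 (85.7%) were called, beside 71.1% of all genes tested, with 8 higher (35.2% over all genes) and 4 lower (35.9%). Numbl, a relative of the Notch inhibitor Numb, rose from 5.27 ± 0.671 to 15.4 ± 1.02 CPM (log2 fold change 1.56, adjusted p = 7.37e-10 from edgeR, SE 0.10), or 2.95 times. The Deltex genes Dtx3 (54.0 ± 1.54 to 111 ± 4.92 CPM) and Dtx1 (5.43 ± 0.481 to 9.33 ± 0.599 CPM) rose by 1.04 and 0.78 log2 units. The ubiquitin ligases that let ligands be taken up moved apart. Mib2 rose by 0.80 (adjusted p = 1.38e-06 from edgeR) and Neurl1b by 0.38 (adjusted p = 0.00271 from edgeR), while Mib1 fell by 0.31 (adjusted p = 2.96e-05 from edgeR). Ccnc, the cyclin that with Cdk8 marks the Notch domain for breakdown, was lower at -0.71 (adjusted p = 4.55e-08 from edgeR), as were Dtx4 at -0.49 and Cdk8 at -0.24. Neurl1a had at most 4 reads in a library.

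**Figure D5:**
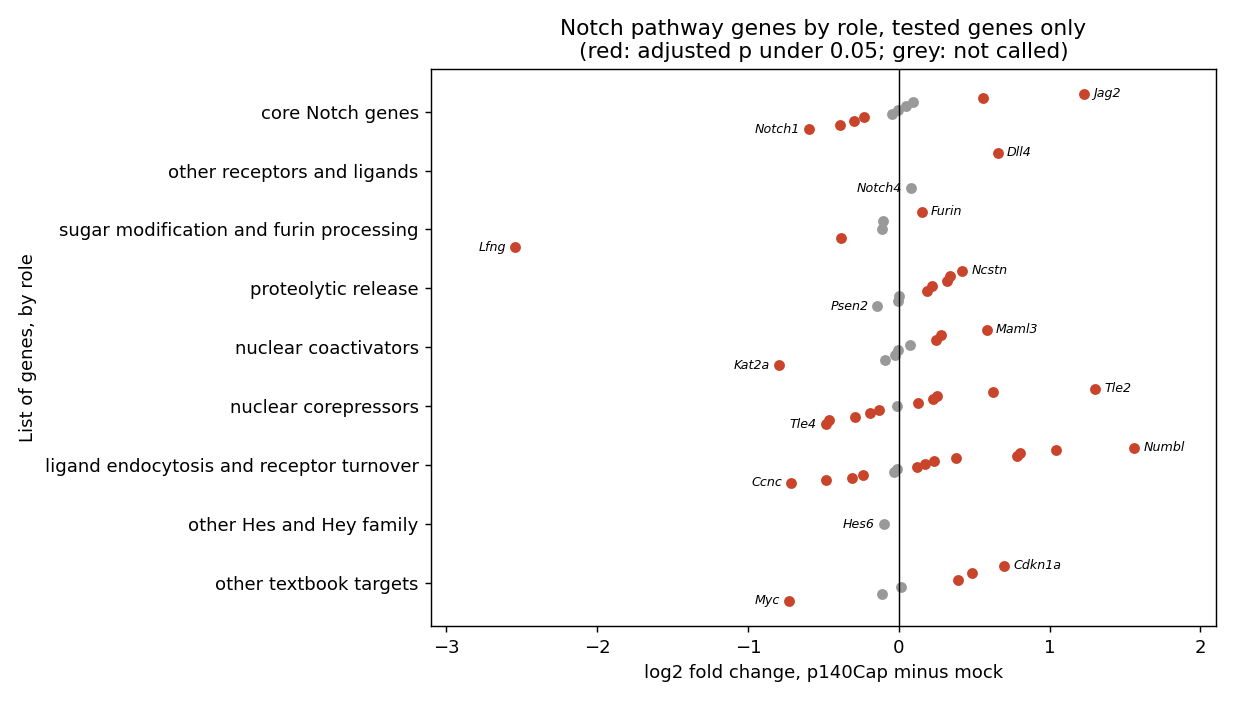
Log2 fold change of p140Cap over mock cells for tested genes of the Notch pathway by role, red where called and grey where not, with the highest and lowest gene of each list named. The 5 called genes of proteolytic release lie to the right of 0, while the nuclear corepressors reach from -0.48 (Tle4) to 1.30 (Tle2).

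Of the rest of the Hes and Hey family, only Hes6 had enough reads to be tested. Hes6 had 20.9 ± 1.21 and 19.4 ± 2.26 CPM in mock and p140Cap cells and was not called (log2 fold change -0.100, adjusted p = 0.282 from edgeR), although it was called lower without p140Cap 2 (-0.20, adjusted p = 0.0434). Hes7, too low to test, had 12, 9 and 4 reads in mock and 8, 10 and 3 in the shallower p140Cap libraries. After scaling this is 2.89 times as much in p140Cap cells (95% exact binomial interval 1.54 to 5.38, counting error only). The groups overlapped, with p140Cap 3 at 0.220 CPM and mock 2 at 0.226 CPM. Hey2 had 13, 10 and 2 reads in mock and 1, 0 and 1 in p140Cap libraries, or 0.275 times the mock level after scaling (interval 0.0316 to 1.10). Hes2 and Hes3 had at most 1 read in a library, and Hes5 and Heyl had none in any.

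Of 6 other textbook targets tested, 3 were higher and 1 lower, and the 66.7% called stand beside 71.1% of all genes tested. Myc, a growth regulator with many inputs besides Notch, fell from 72.9 ± 3.41 to 43.9 ± 2.24 CPM (log2 fold change -0.73, adjusted p = 8.18e-09 from edgeR, SE 0.057). Cdkn1a, a cell cycle inhibitor, rose from 46.6 ± 2.28 to 75.6 ± 3.83 CPM (0.70, adjusted p = 1.02e-08 from edgeR, SE 0.056). Sox9 and Efnb2 were higher at 0.48 and 0.39, and Ccnd1 (0.017) and Bcl2 (-0.11) were not called. Snai2 had at most 1 read in a library. These genes answer to several pathways besides Notch.

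Of the 10 Notch genes, 9 have an annotated gene on the other strand and Jag2 has none. Libraries were stranded, but the sources used here do not say if reads were counted by strand, so reads of such partners cannot be told apart. On the same strand, annotated genes overlap Notch1, Notch2, Jag2 and Rbpj.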

How the data were processed

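Poly(A) RNA was sequenced as stranded libraries on an Illumina NextSeq and processed with docker4seq. The authors deposited counts, whole numbers of reads for each of 21960 genes with replicates kept apart. The submitters' processing notes name STAR 2.5, RSEM and mm10 without roles, so the counts may be rounded estimates, and the paper names GRCm39.

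Counts were analysed in R 4.3.3 with TMM factors, filterByExpr by group and edgeR 4.0.16 (quasi-likelihood test, condition as only term). SE is the absolute log2 fold change over the square root of F. The script was tested on simulated data. Exon lengths, GC content and overlapping genes came from GENCODE (GRCm39) and positions and promoters from RefSeq (GRCm38.p6). Counting intervals cover counting error only.

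The Notch genes and lists were chosen with earlier results of these data known. Named genes are all 10 Notch genes, Srcin1, Notch4, Dll3, Dll4, other Hes and Hey genes, the called genes of each list that changed most (at most 5), and those too low to test. Other genes (Adam17, Psen2, Ccnd1, Bcl2, Mib1, Neurl1b, Dtx4, Cdk8 and those named for lost or turned calls) were named after their values were seen. Some genes of the lists count in the totals and are not reported here by name.

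Alternatives were RLE factors, DESeq2 1.42.0, limma-voom (limma 3.58.1), no filter, at least 10 reads in every library, thinning, leaving out each library, a replicate block and the longest transcript. Leaving out both libraries numbered 2 was added after seeing the data.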

Additional observations from a re-analysis of the deposited data

How the results depend on the processing

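Over 14 alternatives, Notch1 ranged from -0.79 to -0.54 on the log2 scale, Notch3 from 0.37 to 0.61, Jag2 from 1.00 to 1.38, Dll1 from -0.48 to -0.37 and Nrarp from -0.35 to -0.27, and all 5 were called in each. Jag1 ranged from -0.28 to -0.17 and lost its call only when both libraries numbered 2 were left out, an alternative chosen after seeing the data. With the replicate block, 2 Notch genes were called higher and 4 lower, and of the other pathway genes 23 were higher and 11 lower, while 8034 of all 11800 genes tested were called. Same-numbered libraries deviated with correlations of -0.030, -0.11 and -0.057, so numbers were not treated as pairs. The median log2 fold change of the Notch genes was -0.055 without a filter, when that of all genes was -0.059, and -0.058 without both libraries numbered 2. With any libraries left out it lay between -0.058 and -0.018. With the longest transcript as the length, mock and p140Cap shares were 40.8% and 25.6% for Notch1, 19.8% and 19.4% for Notch2, 39.4% and 55.0% for Notch3, 7.86% and 8.63% for Jag1, and 91.4% and 89.2% for Dll1, and the p140Cap share of Jag2 was 2.14%. Some values near 0 turned direction. After thinning Rbpj was at 0.0091 and Maml1 at 0.017, and Ccnd1 was at -0.013 without a filter. With libraries left out, the ranges were -0.053 to 0.075 for Notch2, -0.031 to 0.029 for Rbpj, -0.020 to 0.021 for Adam17, -0.062 to 0.025 for Maml1, -0.053 to 0.041 for Snw1, -0.064 to 0.019 for Itch, -0.17 to 0.041 for Dtx2 and -0.0025 to 0.022 for Ccnd1. The cause was not tested. Of 55 other pathway genes, 6 lost and 5 gained a call under at least 1 alternative. Lfng had too few reads to be tested in 4 of the 14 (at least 10 reads, thinning, without mock 2 and without mock 3) and was called in the other 10. Depth limits the genes with few p140Cap reads, such as Lfng, Dll3, Mfng, Hey2, Aph1c, Hes7 and Notch4.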
